A study of Homo sapiens with 4 samples.

Results

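Levels of 10 genes of vessel growth signalling were compared across 4 established human leiomyosarcoma lines, SKUT1, SKN, SKLMS1 and RKN. The genes were chosen by name from the expression table of 23577 genes, and all 10 were found in it. They were the VEGF family ligands VEGFA, VEGFB, VEGFC and PGF, the neuropilins NRP1 and NRP2, the TIE receptors TEK and TIE1, and the angiopoietins ANGPT1 and ANGPT2. Leiomyosarcomas are sarcomas with smooth muscle differentiation. The labels give 1 library of poly(A) RNA for each line, from untreated cells in medium with 10% serum, so a line is a group of 1 library with no named allele or agent. Values are FPKM, fragment counts scaled by transcript length and sequencing depth, so levels of different genes can be set side by side. With 1 library per line there is no replicate error and no test, and each difference below is a size that compares these libraries only.

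VEGF ligands act on receptor tyrosine kinases of endothelial cells. VEGFA drives vessel growth through KDR (VEGFR2) and also binds FLT1 (VEGFR1), VEGFB and PGF bind FLT1, and VEGFC acts mainly on FLT4 (VEGFR3) in lymphatic vessels. Neuropilins are co-receptors that bind both VEGFs and class 3 semaphorins, and they are widely made outside the endothelium. Angiopoietins act on TEK (TIE2): ANGPT1, commonly made by mural cells, activates it, and ANGPT2 can antagonise it. TIE1 is a related receptor that forms complexes with TEK and is, in normal tissue, largely endothelial.

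The libraries were estimated from their low values to hold between 23900000 reads in SKUT1 and 33300000 in RKN. A transcript of 2 kb then gained 0.0167 to 0.0233 FPKM with each read. The label of smooth muscle origin was checked against 10 smooth muscle genes, which summed to 6345 FPKM in SKUT1, to 912 in SKLMS1, to 206 in RKN and to 110 in SKN. The late contractile markers MYH11 and DES were at most 1.15 and 1.10 FPKM in any line, and ACTA2, smooth muscle actin, was 1.37 in SKN. The matrix genes FN1 and COL1A1 are listed at exactly 0 in SKUT1 although FN1 is abundant in SKN and COL1A1 in SKLMS1, and such an entry can be a failed estimate, so a member with an exact 0 is described as listed at 0 and given no fold.

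The 4 lines each had their own mixture of VEGF ligands. SKUT1 was dominated by VEGFC, SKN held VEGFA and VEGFB together with the highest PGF, SKLMS1 was mostly VEGFA, and RKN was mostly VEGFB at the lowest sum. Summed over VEGFA, VEGFB, VEGFC and PGF, the FPKM was 259 in SKUT1, 166 in SKN, 154 in SKLMS1 and 30.4 in RKN. VEGFC made up 58.6% of that sum in SKUT1, VEGFA 47.1% in SKN and 79.0% in SKLMS1, and VEGFB 61.5% in RKN. In SKN VEGFB followed with 26.2% and PGF with 22.6%.

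**Figure D1:**
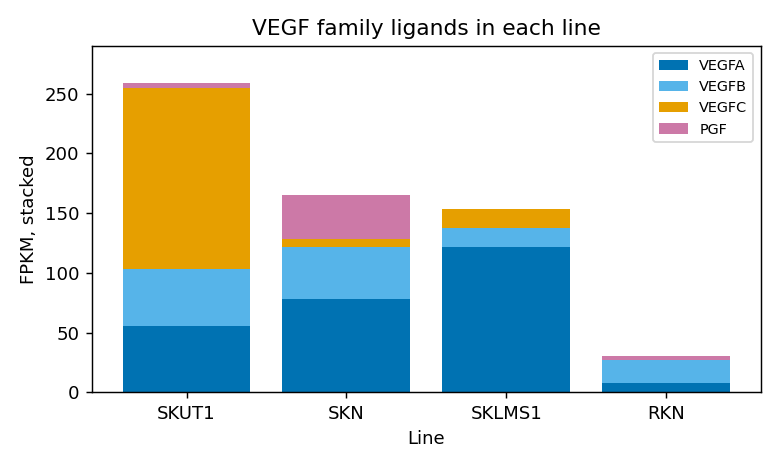
Stacked FPKM of the 4 VEGF family ligand genes (vertical axis) in each line (horizontal axis), with 1 library per line. The bar of SKUT1 reaches 259 and is mostly VEGFC, while that of RKN reaches 30.4 and is mostly VEGFB.

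VEGFA, the main angiogenic ligand, had an FPKM of 121 in SKLMS1, 78.0 in SKN, 55.5 in SKUT1 and 7.94 in RKN. The upper 3 lines lay within 2.19-fold of each other, whereas SKLMS1 was 15.3-fold and SKUT1 6.99-fold above RKN. On the scale of log2(FPKM + 1), RKN lay 2.66 below the next line. VEGFB, a ligand of FLT1, was the most even of the ligands, with 47.5 FPKM in SKUT1, 43.3 in SKN, 18.7 in RKN and 16.2 in SKLMS1. SKUT1 and SKN formed an upper pair, 1.10-fold apart, and RKN and SKLMS1 a lower pair, 1.15-fold apart. The order within the upper pair turned when the columns were rescaled to the same sum (difference of SKUT1 minus SKN -0.07 on the log2 scale) or quantile normalized (-0.02), so neither is called higher.

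VEGFC, the lymphangiogenic ligand, varied most of the 10 genes, with a range of 7.23 on the log2(FPKM + 1) scale. Its FPKM was 152 in SKUT1, 15.9 in SKLMS1, 6.93 in SKN and 0.0158 in RKN. SKUT1 stood 9.57-fold above SKLMS1, and the value in RKN amounted to about 1 read (0.982 read equivalents from the longest coding transcript). PGF, placental growth factor, was 37.4 in SKN, 4.15 in SKUT1, 3.73 in RKN and 0.178 in SKLMS1. SKN was thus 9.01-fold above SKUT1, and SKLMS1, at about 9.36 read equivalents, was the lowest line for PGF although it was the highest for VEGFA. The difference between SKUT1 and RKN for PGF was 1.11-fold and changed direction after rescaling to the same sum (-0.28 for SKUT1 minus RKN on the log2 scale).

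**Figure D2:**
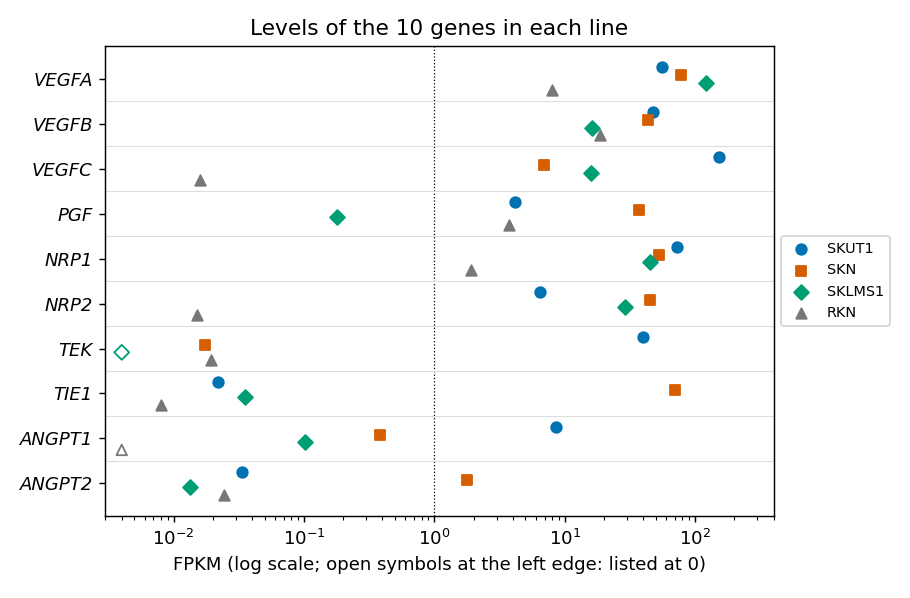
FPKM of the 10 genes (rows) in each line (symbols) on a log axis, 1 library per line, with a dotted line at an FPKM of 1 and open symbols at the left edge for values listed at 0. TEK, TIE1, ANGPT1 and ANGPT2 each pass the dotted line in 1 line, and RKN is the lowest line for VEGFA, VEGFC, NRP1 and NRP2.

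NRP1 was at a high level in SKUT1, SKN and SKLMS1 and NRP2 in SKN and SKLMS1, and both were lowest in RKN. NRP1, a co-receptor for VEGFA, had an FPKM of 72.8 in SKUT1, 52.5 in SKN, 44.8 in SKLMS1 and 1.93 in RKN. The first 3 values were within 1.62-fold of each other, and SKUT1 was 37.8-fold and SKLMS1 23.3-fold above RKN. NRP2, which binds VEGFC and semaphorins such as SEMA3F, was 45.2 in SKN, 29.1 in SKLMS1, 6.46 in SKUT1 and 0.0151 in RKN, about 3.24 read equivalents. SKUT1, the line with the most NRP1, was thus below SKN for NRP2, by a log2 difference of -2.63. In SKUT1 NRP1 gave 91.8% of the summed neuropilin FPKM, against 53.7% in SKN and 60.7% in SKLMS1.

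Each TIE receptor was found in a different line. TEK reached 39.6 FPKM in SKUT1, with 0.0195 in RKN, 0.0173 in SKN and an entry of 0 in SKLMS1. TIE1 was 70.0 in SKN, 0.0351 in SKLMS1, 0.0221 in SKUT1 and 0.00801 in RKN. Outside its high line each receptor amounted to at most 3.94 read equivalents, so the order of the low lines carries no information. On the log2(FPKM + 1) scale TEK in SKUT1 stood 5.32 above the next line and TIE1 in SKN 6.10. No line held both receptors at an FPKM of 1 or more. In RNA from whole cultures, fewer cells that make a receptor and less RNA per cell cannot be told apart.

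The windows from 250 bases before to 50 after the annotated start of both receptor genes are shown with those of VEGFB and VEGFC, because they differ in CpG content, a choice made after the windows had been seen. They were taken by symbol from RefSeq sequences of assembly GRCh38.p14, a later build than the hg19 of the expression values, and the capitals mark CG dinucleotides. TEK has another annotated start downstream, whose window holds 3 CG dinucleotides and is not shown.
TIE1, chr1:43300732-43301031, plus strand: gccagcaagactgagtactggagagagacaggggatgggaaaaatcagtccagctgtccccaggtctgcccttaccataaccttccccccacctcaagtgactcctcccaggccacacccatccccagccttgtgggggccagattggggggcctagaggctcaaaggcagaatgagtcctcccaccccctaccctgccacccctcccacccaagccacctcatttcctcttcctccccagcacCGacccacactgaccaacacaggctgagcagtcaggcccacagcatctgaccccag
TEK, chr9:27108975-27109274, plus strand: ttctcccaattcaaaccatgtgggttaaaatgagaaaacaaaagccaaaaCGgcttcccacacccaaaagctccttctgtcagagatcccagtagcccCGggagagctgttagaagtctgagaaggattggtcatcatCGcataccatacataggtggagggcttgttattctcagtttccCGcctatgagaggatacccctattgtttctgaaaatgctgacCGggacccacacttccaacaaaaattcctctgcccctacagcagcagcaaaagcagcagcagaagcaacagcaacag
VEGFC, chr4:176792873-176793172, minus strand: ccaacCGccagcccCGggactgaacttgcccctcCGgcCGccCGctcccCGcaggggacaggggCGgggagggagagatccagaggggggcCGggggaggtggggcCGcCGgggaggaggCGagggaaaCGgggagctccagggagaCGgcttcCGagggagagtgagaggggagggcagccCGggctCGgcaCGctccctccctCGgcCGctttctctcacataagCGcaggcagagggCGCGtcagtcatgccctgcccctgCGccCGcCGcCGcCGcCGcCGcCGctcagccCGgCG
VEGFB, chr11:64234334-64234633, plus strand: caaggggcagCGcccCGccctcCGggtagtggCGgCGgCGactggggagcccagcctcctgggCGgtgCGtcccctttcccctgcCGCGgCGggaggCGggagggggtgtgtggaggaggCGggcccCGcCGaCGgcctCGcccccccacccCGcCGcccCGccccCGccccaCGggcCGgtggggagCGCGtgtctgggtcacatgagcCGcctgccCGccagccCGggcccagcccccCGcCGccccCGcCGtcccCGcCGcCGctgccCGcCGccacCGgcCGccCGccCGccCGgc
TIE1 held 1 CG dinucleotide and TEK 5, whereas VEGFC held 32 and VEGFB 42. Of windows not printed, those of PGF held 27 and 40 and that of NRP2 33. The receptor genes FLT1, with 33, and KDR, with 22, also reached an FPKM of 1 in 1 line each, so not every receptor gene found in 1 line had a window poor in CG dinucleotides. The median over 35116 promoter windows of 300 bases was 14. Sequence windows were matched for 6 of the 10 genes, which is 60% and under the 80% needed, so a comparison over the set as a whole is void and none was made. No window was used for VEGFA, NRP1, ANGPT1 or ANGPT2. The hypoxia response core, ACGTG or GCGTG on either strand, occurred once each in the windows of VEGFB, VEGFC and FLT1 and in both windows of PGF. It was not found in those of NRP2, TEK, TIE1 and KDR, and 48.4% of all windows held it. These are matches of letters in a short window and do not show that a factor binds.

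Each angiopoietin was highest in a line with a TIE receptor, but only ANGPT1 in the line with TEK. ANGPT1 had an FPKM of 8.64 in SKUT1, the line with TEK, and 0.381 in SKN, 0.102 in SKLMS1 and an entry of 0 in RKN. ANGPT2 was 1.79 in SKN, the line with TIE1, 0.0334 in SKUT1, 0.0241 in RKN and 0.0132 in SKLMS1. ANGPT2 lies inside the gene MCPH1, and the strand setting of the quantification is not given in the sources used here, so reads of the host gene cannot be told apart with certainty. MCPH1, which acts in chromosome condensation, did not share that order, with 10.2 FPKM in SKLMS1, 8.51 in RKN, 5.84 in SKUT1 and 5.49 in SKN. ANGPT2 was 4-fold higher in SKN than in the other lines only with a pseudocount of 0.1 (SKUT1 minus SKN -3.83 on the log2 scale) or after rescaling to the same sum (-2.04), and not at a pseudocount of 1, where that difference was -1.43.

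The VEGF receptors, which were not among the 10 genes, were also split between lines and low. FLT1 was 4.37 FPKM in SKUT1 and at most 0.0190 elsewhere. KDR was 4.91 in SKN, 0.00698 in SKUT1 and listed at 0 in SKLMS1 and RKN. FLT4 was 2.50 in RKN and at most 0.0151 elsewhere. The further ligands VEGFD, under its older symbol FIGF, and ANGPT4 were at most 4.8e-10 and 0.0689 in any line.

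For 8 textbook pairs of a ligand and a receptor kinase, both partners at an FPKM of 1 or more were found for 4 pairs in SKUT1, 2 in SKN and none in SKLMS1 and RKN. In SKUT1 these were ANGPT1 with TEK, and VEGFA, VEGFB and PGF with FLT1. In SKN they were VEGFA and VEGFC with KDR. ANGPT2 and TEK did not both reach an FPKM of 1 in any line, with TEK at 0.0173 in SKN. At a minimum FPKM of 5, only ANGPT1 with TEK in SKUT1 was left. RKN held FLT4 at 2.50 but its ligand VEGFC at 0.0158 and FIGF at an entry of 0. Of 4 pairs of a ligand with a neuropilin, both partners reached an FPKM of 1 for 4 in SKUT1, 4 in SKN, 3 in SKLMS1 and 3 in RKN. The pairs were listed after the values had been seen, and RNA levels do not show that a receptor is active.

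Endothelial cells would carry these receptors, so their markers were examined. The defining genes PECAM1 (CD31), CDH5 (VE-cadherin) and VWF were at or near 0, with at most 0.115, 0.0702 and 0.293 FPKM in any line. SOX17 was listed at 0 in every line. Of 21 endothelial markers other than the 5 receptors, 6 reached an FPKM of 1 in SKUT1, 7 in SKN, 3 in SKLMS1 and 4 in RKN. Of all 23577 genes, 11518 did so in SKUT1, 11474 in SKN, 11738 in SKLMS1 and 11460 in RKN. The share of the markers was thus below that of all genes in each line. The summed FPKM of the 21 markers was 101 in SKUT1, 92.8 in SKN, 10.5 in SKLMS1 and 26.4 in RKN, so it was higher in the lines with TEK and TIE1.

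A few endothelial-associated genes made up most of these sums. ESM1, which encodes endocan, was 60.8 FPKM in SKUT1 and 28.3 in SKN and listed at 0 in SKLMS1 and RKN. SOX7, a transcription factor of early endothelium, was 15.9 in SKN, 4.17 in RKN, 2.79 in SKLMS1 and 0.0271 in SKUT1. The ETS factor gene FLI1 was 14.6 in SKN, 9.11 in SKUT1, 0.0201 in SKLMS1 and an entry of 0 in RKN. Another ETS factor gene, ERG, was 7.07 in SKUT1, 0.0350 in SKN, 0.0264 in RKN and an entry of 0 in SKLMS1, and CD34 was 14.6 in SKUT1 and at most 0.114 elsewhere. EGFL7, a secreted factor of vessels, was 26.3 in SKN, 14.7 in RKN, 5.45 in SKLMS1 and 5.29 in SKUT1. EGFL7, FLI1, ERG and CD34 were picked here after their values were seen. Among the others of these markers that reached an FPKM of 1, EMCN and CLDN5 were highest in RKN, at 3.33 and 1.52. SOX18 was highest in SKLMS1, at 1.80, and ROBO4, ECSCR and ESAM in SKN, at 2.73, 2.23 and 1.75. Markers of pericytes, mural cells that make ANGPT1, summed to 218 FPKM in SKUT1, 143 in RKN, 86.0 in SKLMS1 and 28.2 in SKN, and individual markers went different ways. PDGFRB was highest in SKUT1 at 70.7, with 33.7 in SKLMS1 and at most 1.60 elsewhere, and the receptor gene NOTCH3 was 108 in SKUT1 and at most 3.97 elsewhere. RGS5 was 127 in RKN, where it made up most of the sum, and at most 3.48 elsewhere, and MCAM was 46.6 in SKLMS1, 22.3 in SKN, 15.4 in SKUT1 and 1.99 in RKN.

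The 13 haematopoietic markers summed to 77.7 FPKM in SKUT1, 18.6 in SKN, 28.9 in SKLMS1 and 6.75 in RKN, mostly from CD68, a lysosomal gene, at 75.3 in SKUT1, 21.9 in SKLMS1, 17.5 in SKN and 4.76 in RKN. CSF1R was 5.48 in SKLMS1 and at most 0.437 elsewhere, and CD14 was at most 1.64. The leukocyte gene PTPRC (CD45) was at most 0.213, and TYROBP and MS4A1 were listed at 0 in every line. The 11 epithelial markers summed to 904 FPKM in SKUT1, 556 in SKN, 465 in SKLMS1 and 55.8 in RKN, nearly all of it from keratins. KRT14 was 474 and KRT7 141 in SKUT1, with at most 0.0414 and 6.05 elsewhere. KRT8 was 268 in SKLMS1, 265 in SKN, 9.42 in SKUT1 and 1.99 in RKN, and KRT19 was 146 in SKLMS1, 93.4 in SKUT1, 44.6 in RKN and 0.342 in SKN. EPCAM and CDH1, which define epithelial cells, were at most 1.80 and 1.20. The part of all these markers in the levels of the receptors and angiopoietins was not tested.

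**Figure D3:**
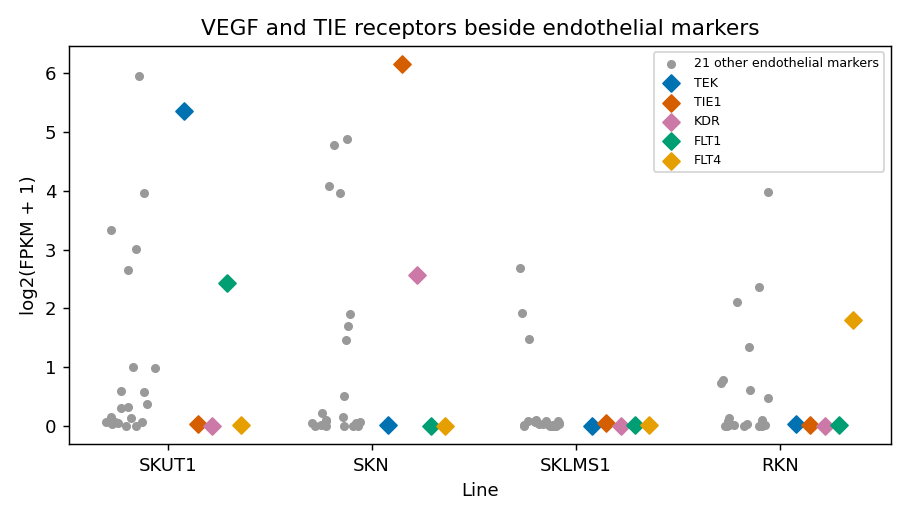
Level as log2(FPKM + 1) (vertical axis) of 5 VEGF and TIE receptor genes (coloured diamonds) and of 21 other endothelial markers (grey points) in each line, 1 library per line. TEK and FLT1 stand up in SKUT1, TIE1 and KDR in SKN and FLT4 in RKN, while most grey points lie near 0 in all 4 lines.

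The 10 genes were spread widely between lines. Across them the median range over the 4 lines was 4.84 on the log2(FPKM + 1) scale, and the median over the 13713 genes that reached an FPKM of 1 in any line was 1.31. The range was 4-fold or more for 8 of the 10 genes, the exceptions being VEGFB (1.50) and ANGPT2 (1.46), and for 26.7% of all genes. TEK, TIE1, ANGPT1 and ANGPT2 entered the comparison through 1 high line, which in itself makes a wide range likely, and the genes were chosen with earlier results of these data known. The counts therefore describe these genes and support nothing further.

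Between pairs of lines, 6 of the 10 genes were at least 4-fold apart in SKUT1 and SKN, where 12.1% of all genes were. VEGFC, TEK and ANGPT1 were higher in SKUT1 (7.69% of all genes), and PGF, NRP2 and TIE1 higher in SKN (4.4%). SKUT1 and SKLMS1 differed in 5 genes (12.1% of all), with VEGFC, PGF, TEK and ANGPT1 higher in SKUT1 (7.28%) and NRP2 higher in SKLMS1 (4.79%). TEK was counted there against an entry of 0 in SKLMS1, so its place in the count depends on that entry. SKN and SKLMS1 had the fewest, with PGF and TIE1 higher in SKN (3.6% of all genes) and none higher in SKLMS1 (4.3%), where 7.9% of all genes differed.

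Most of the 10 genes that were 4-fold apart from RKN were lower in RKN. In SKUT1 6 genes were higher than in RKN and none was lower, where 15.2% of all genes differed (10.2% higher in SKUT1 and 5.03% higher in RKN). ANGPT1 was among the 6 and was counted against an entry of 0 in RKN. In SKN 6 were higher than in RKN and none lower, where 9.65% of all genes differed (5.78% higher in SKN and 3.86% higher in RKN). In SKLMS1 4 were higher and PGF was lower, where 9.79% of all genes differed (6.33% higher in SKLMS1 and 3.46% higher in RKN). VEGFA, VEGFC, NRP1 and NRP2 were higher in each of the other lines than in RKN, which was the lowest line by 4-fold or more for these 4 genes and for 1.65% of all genes. After rescaling to the same sum, 1353 of all genes were higher and 1415 lower in SKUT1 than in RKN, in place of 1397 and 690. In SKN against RKN these counts were 896 and 901, in place of 793 and 530, and in SKUT1 against SKLMS1 they were 974 and 1059, in place of 998 and 657. The 10 genes kept their directions past 4-fold under that scaling. SKUT1 was the highest line by 4-fold for VEGFC, TEK and ANGPT1 (4.06% of all genes) and SKN for PGF and TIE1 (1.34%), and SKLMS1 was the lowest for PGF (0.306%), by 2.01 on the log2 scale and by 1.98 after median-of-ratios scaling.

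**Figure D4:**
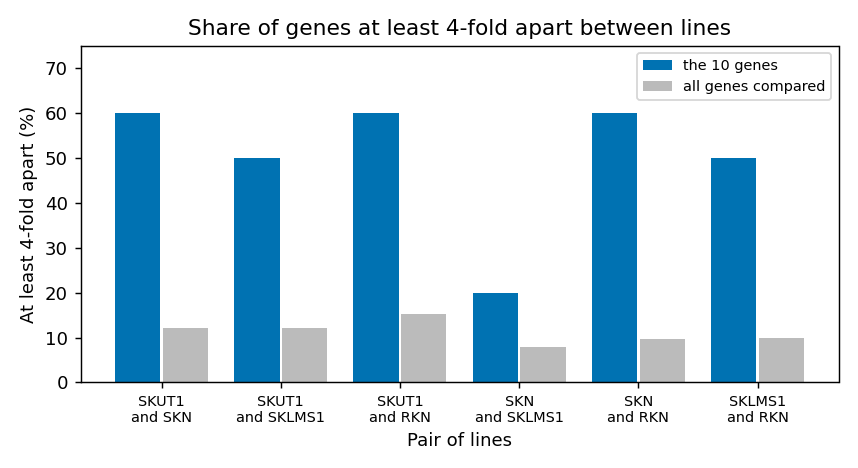
Share of genes at least 4-fold apart (vertical axis, percent) in each pair of lines, for the 10 genes (blue) and for all 13713 genes compared (grey), 1 library per line. The blue bars exceed the grey ones in each pair, and the grey bars lie between 7.9 and 15.2%.

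Genes that work with the 10 genes were described from lists, as the number at least 2-fold above or below the mean of the other 3 lines. Of all genes 17.9% were above that mean in SKUT1, 9.97% in SKN, 10.7% in SKLMS1 and 11.6% in RKN, and 13.1% were below it in SKUT1, 10.8% in SKN, 9.83% in SKLMS1 and 16.6% in RKN. The median difference over all genes was -0.03 on the log2 scale in SKUT1, -0.05 in SKN, -0.06 in SKLMS1 and -0.04 in RKN. Of 28 hypoxia regulators and targets, a class to which VEGFA belongs, 13 were lower and none higher in RKN (median log2 difference -0.81). After rescaling to the same sum 11 were lower and 1 was higher. HIF1A, a hypoxia-inducible factor subunit, was 312 FPKM in SKUT1, 254 in SKLMS1, 216 in SKN and 38.1 in RKN, and EPAS1, its relative HIF2A, was 83.7 in SKUT1, 74.5 in SKN, 70.5 in SKLMS1 and 4.19 in RKN. In SKLMS1, the line with the most VEGFA, 11 were higher and 2 lower (median 0.60), and without RKN among the other lines 7 were higher and 3 lower (median 0.04). In SKUT1 11 were higher and 6 lower (median 0.17, and -0.12 after rescaling to the same sum), or 7 and 6 without RKN, and in SKN 2 were higher and 4 lower, or 6 and 3 without SKLMS1 and 2 and 8 without RKN. STC2, a secreted glycoprotein, was 564 in SKUT1, 104 in SKLMS1, 27.6 in SKN and 2.25 in RKN, and NDRG1, a stress-induced gene, was 123 in SKUT1, 62.3 in SKLMS1, 34.3 in SKN and 3.27 in RKN. ANKRD37 was 74.4 in SKUT1 and at most 4.50 elsewhere, and ANGPTL4, an angiopoietin-like inhibitor of lipoprotein lipase, was 33.5 in SKUT1 and at most 5.41 elsewhere. STC2, NDRG1, ANKRD37 and ANGPTL4 thus did not share the order of VEGFA. PGK1, ENO2, BNIP3 and PDK1, of the same list, did share it, and the list held further orders.

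Plexins, only some of which signal together with neuropilins, and class 3 semaphorins differed in both directions. Of 12 compared genes, 5 were higher and none lower in SKUT1 (median log2 difference 0.90), 4 were higher and 3 lower in SKN (-0.36), 4 were lower in SKLMS1 (-0.18) and 3 were lower in RKN (-0.45). After rescaling to the same sum, 3 were higher and 1 lower in SKUT1, and 4 were higher and 3 lower in SKN. Under that scaling 1 was higher and 2 lower in SKLMS1, and 1 was higher and 3 lower in RKN. SEMA3C was 241 FPKM in SKUT1, with 39.5 in RKN, 33.2 in SKN and 17.8 in SKLMS1. The receptor gene PLXND1 was 94.9 in SKUT1 and at most 8.16 elsewhere, and PLXNA2 17.8 and at most 1.46. SEMA3F, a ligand of NRP2, was 48.8 in SKN, 14.4 in SKUT1, 3.89 in RKN and 2.65 in SKLMS1, so it was highest in the line with the most NRP2 but low in SKLMS1, where NRP2 was 29.1.

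Modulators of TIE and VEGF receptors differed between lines, with 3 of 11 compared genes higher in SKUT1, 3 in SKN, 2 in SKLMS1 and none in RKN, and with 2 lower in SKUT1, 2 in SKN, 1 in SKLMS1 and 3 in RKN. The median log2 difference was 0.16 in SKUT1 (-0.14 after rescaling to the same sum), 0.53 in SKN, -0.12 in SKLMS1 and -0.91 in RKN. With a pseudocount of 0.1 those lower in RKN numbered 6. With a pseudocount of 5 those higher numbered 1 in SKUT1, 1 in SKN and 2 in SKLMS1, and without RKN 1 was higher in SKUT1. SVEP1, a large matrix protein of lymphatic development, was 6.85 FPKM in SKUT1 and at most 0.0828 elsewhere. SH2D2A, an adaptor of KDR, was 22.0 in SKN, the line with KDR, 1.64 in SKUT1, 0.247 in RKN and listed at 0 in SKLMS1. GRB14, an adaptor that binds tyrosine kinase receptors, was 12.6 in SKLMS1, 5.60 in SKUT1, 0.595 in SKN and listed at 0 in RKN, and the phosphatase gene PTPRJ was 22.9 in SKLMS1, 16.1 in SKN, 6.30 in RKN and 5.86 in SKUT1. PTPRB, the endothelial phosphatase of TEK, was 1.19 in SKUT1 and at most 0.214 elsewhere. CCBE1, which with the protease ADAMTS3 serves the maturation of VEGFC, lay between 3.69 and 8.59 in all lines, and ADAMTS3 was at most 0.939.

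Genes with the most similar pattern were sought for the 8 genes that varied by 4-fold or more, as the smallest maximum difference between centred log2(FPKM + 1) profiles over the 4 lines. With 4 values and 13012 candidates close matches can arise readily, and the names describe likeness in these libraries only. NRP1 was matched most closely by EPAS1 (difference 0.34), and VEGFC by the basement membrane collagen COL4A1 (0.22), which was 706 FPKM in SKUT1 and at most 83.4 elsewhere. EPS8 (0.44) and the partner chain COL4A2 (0.54) came next. For VEGFA the nearest were A1BG (0.18), the adhesion molecule MCAM (0.26) and the ETS factor gene ETS2 (0.35). PGF was nearest to DUSP6, a phosphatase of ERK (0.51), and to the adhesion molecule ICAM1 (0.68). NRP2 was nearest to the cytokine IL11 (0.28), the matrix gene TNC (0.49) and the integrin ITGB3 (0.62). TEK was matched by the homeobox gene MEOX2 (0.03), which was 38.1 in SKUT1 and listed at 0 elsewhere, TIE1 by the protease inhibitor SLPI (0.06), and ANGPT1 by the matrix gene EFEMP2 (0.04).

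The genes next to the members on the chromosome mostly did not show the members' differences. C1orf210, next to TIE1, was at most 0.0495 FPKM in any line, and LRRC19, next to TEK, was at most 0.0694. SPCS3 and NEIL3, beside VEGFC, had ranges of 1.31 and 1.47 on the log2 scale, against 7.23 for VEGFC. ITGB1, the integrin beta chain next to NRP1, was 1240.2 in SKUT1, 442 in SKLMS1, 237 in SKN and 129 in RKN, so it was lowest in the same line as NRP1. PARD3B, a polarity gene next to NRP2, was 7.31 in SKUT1, 1.91 in SKN, 0.844 in SKLMS1 and 0.0463 in RKN. FKBP2, beside VEGFB, was 127 in SKUT1, 90.7 in SKN, 62.4 in RKN and 57.8 in SKLMS1, in the same order as VEGFB.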

How the data were processed

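Poly(A) RNA of 4 untreated leiomyosarcoma lines was sequenced, 1 library per line, from TruSeq Stranded mRNA libraries read as single-end reads of 75 bp, per the labels' protocols. The deposited FPKM values, 1 column per line, were made by the authors with STAR and Cufflinks on genome build hg19, per the submitters' processing notes. Versions, annotation, strand setting and filters are not stated in these sources.

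Of 23610 rows, 28 with a date number for a symbol and 5 with a spreadsheet error were left out. Depth was estimated from single-transcript genes of GENCODE release 29, assuming fragments of 200 bases. With the fitted unit 61.9 to 62.7% of 300 to 346 low values per line came to a whole number of reads within 0.1, so no counts were recovered. Read equivalents of a gene rest on its longest coding transcript in that release and on these totals.

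Values were compared as log2(FPKM + 1), which understates differences of low genes, among 13713 genes that reached an FPKM of 1 in any line. Sizes of 2 (4-fold) were counted between lines, and of 1 (2-fold) from the mean of the other 3 lines. With 1 library per line nothing could be tested. The 10 members and all lists were chosen with earlier results of these data known. Beyond the members, genes were named by a rule: 5 further ligands and receptors, up to 4 genes of widest range per list, up to 3 of most similar pattern per member, and neighbours on each side, of which 1 is not reported here. PTPRB, CCBE1, ADAMTS3, HIF1A, PGK1, ENO2, BNIP3, PDK1, EPCAM, CDH1, PTPRC, TYROBP and MS4A1 were chosen after their values were seen. So were the defining markers and the endothelial markers named beyond the rule. Gene order and overlaps came from RefSeq GRCh38.p14, in which 97.8% of the compared symbols were found. The code was tested on simulated data. Python 3.11.15 with numpy 2.4.6, pandas 2.3.3 and matplotlib 3.10.9 was used.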

Additional observations from a re-analysis of the deposited data

How the results depend on the processing

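Of 414 recomputed differences of a member between 2 lines, 393 stayed on the same side of 4-fold with the same direction. Another 9 were no longer past it, 7 were newly past it, and 5 that were under 4-fold changed sign. Of the 393, 60 came from dropping the filter and 54 from a minimum FPKM of 5. Those settings leave a member's values unchanged, so that part of the agreement was fixed in advance. With a pseudocount of 5 the members 4-fold apart in SKUT1 and SKLMS1 numbered 2 in place of 5, those lowest in RKN 2 in place of 4, and those lowest in SKLMS1 0 in place of 1, which was also 0 with median-of-ratios scaling. Requiring 8-fold gave 3 members apart in SKUT1 and SKN, 3 in SKUT1 and SKLMS1, 1 highest in SKN, 1 lowest in RKN and 0 lowest in SKLMS1. A larger pseudocount or size lowers such counts by construction. Leaving out a line changed the members highest in SKLMS1 to between 0 and 1 and those lowest in SKUT1 to between 0 and 1. In both it was NRP2, which was highest in SKLMS1 without SKN and lowest in SKUT1 without RKN. Receptor kinase pairs with both partners in a line numbered 1 at a minimum FPKM of 5, in place of 6 at 1, a minimum added after seeing the data. Of the recomputed 2-fold counts from the lists, the 10 genes included, 661 stayed at or near the main count and 139 did not. These cover the settings and the left-out lines. With columns rescaled to the same sum, the typical gene differed from the mean of the other lines by -0.31 in SKUT1 and 0.24 in RKN, in place of -0.03 and -0.04. A minimum FPKM of 5 left ANGPT2 out. No paired analysis was possible because each line has 1 library and no test was made.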
